A study of Drosophila melanogaster with 4 samples.

Results

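Projectin, encoded by bt (FBgn0005666), was followed exon by exon in indirect flight muscle (IFM) of Drosophila melanogaster. The gene was taken by its symbol from a table of normalized counts per gene and from a table of exon bins, the stretches into which overlapping annotated exons are divided. It was 1 of 10626 genes in the first table, and it had 47 of the 46187 bins in the second. It was selected on its gene counts and exon usage values, compared between the genotypes, so its own differences are given as a description, without a test.

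Projectin is a titin-like giant protein of insect muscle, built from long series of immunoglobulin and fibronectin domains with a kinase domain towards its carboxy terminus. In IFM it runs from the Z-disc across the short I-band to the end of the thick filament, as part of the connecting filaments that make fibrillar muscle stiff, whereas in tubular muscles it lies along the A-band. Its amino-terminal region contains an extensible PEVK-like stretch, and the exons of this stretch are known to be alternatively spliced.

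The IFM came from 1 d adult flies of 2 genotypes, with 2 libraries each, every library a pool of many flies raised at 27 °C. The control strain was w1118. In bru1M3 flies, a cassette with a splice acceptor, a stop and a polyadenylation signal sits in the intron ahead of exon 18 of bru1, a gene whose product is an RNA-binding splicing regulator of IFM. The allele truncates every isoform, and the flies carry it in all cells, not in muscle alone. The labels do not say more about how separate the pools were, so an error between replicates may be partly technical.

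Nuclear genes were covered by 8326712 and 12395680 reads in w1118 and by 19999967 and 21962285 in bru1M3, since mitochondrial RNA made up 72.6% and 63.7% of the reads in w1118 but 41.2% and 29% in bru1M3. The normalized count of bru1 itself was 1807 and 1386 in w1118 and 10618 and 9976 in bru1M3. This count adds exons on both sides of the cassette and so does not check the truncation. Of 5 IFM markers, 0 were called by limma (adjusted p under 0.05), and their summed normalized counts were 1332695 and 1372411 in w1118 and 1359192 and 2127658 in bru1M3. Tubular muscle markers summed to 4528 and 6540 in w1118 and to 1871 and 2966 in bru1M3, with 2 of 3 called lower, TpnC41C and Act79B. Called lower were also 2 of 3 gut markers, 2 of 2 haemocyte markers and 1 of 5 markers of neurons and photoreceptors, and 1 fat body marker was called in each direction, where 9.33% of all genes tested were called lower and 12.8% higher. The photoreceptor gene ninaE was highest in w1118 replicate 1, at 1256, against 2.05 to 97.7 in the other libraries.

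The gene count of bt was higher in bru1M3. It was 47271 and 55241 normalized counts in w1118 and 94368 and 146037 in bru1M3. The groups did not overlap, and the bru1M3 libraries differed more from each other than the w1118 libraries did. The means were 51256 ± 5636 (SD, n = 2) and 120203 ± 36535 (SD, n = 2), a log2 fold change of 1.20 with a standard error of 0.31 on the scale of log2(value + 1). These counts stand on 27777 and 50424 reads in w1118 and on 138288 and 189903 in bru1M3. By its mean over the 4 libraries, bt ranked 36 among the 10626 genes. Scaled to equal totals of nuclear reads, the log2 fold change was 1.07, so bt was higher in bru1M3 also when mitochondrial transcripts were left out of the scaling. In bulk tissue, fewer cells of a type and less RNA per cell cannot be told apart, and the part of the marker differences in this value was not tested.

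**Figure D1:**
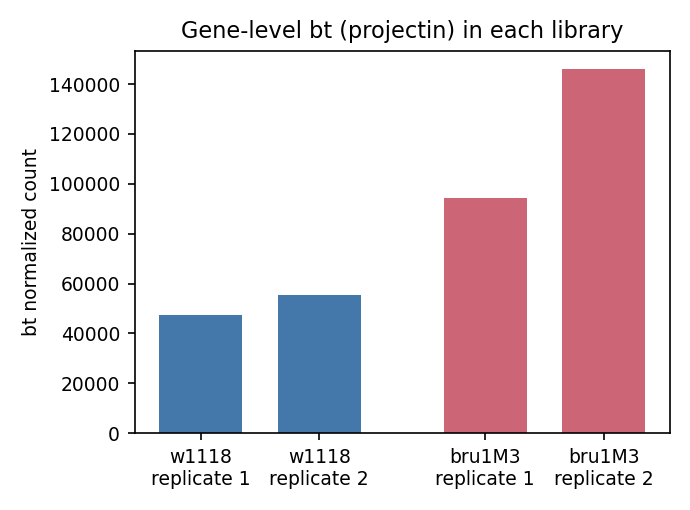
Normalized count of bt in each library, 1 bar per library, w1118 in blue and bru1M3 in red. Both bru1M3 libraries, at 94368 and 146037, lie above both w1118 libraries, at 47271 and 55241.

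The bt gene lies on chromosome 4, between 724400 and 776474 on the plus strand of the dm6 assembly. The annotation divides it into 51 bins, of which bins 2, 3, 22 and 30 had no values in the exon data and so are not described. It has 5 transcripts, bt-RC, bt-RF, bt-RH, bt-RI and bt-RJ, which encode 8648, 8933, 8408, 8866 and 8602 codons. Of the 47 bins, 33 belong to all 5 transcripts and 45 hold coding sequence. The bins ranged from 22 to 9471 bases and from 19.8 to 73946 in base mean, which is the mean normalized count over the libraries.

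Each bin came with a usage value per genotype, on a compressed scale from which the difference in the gene's own expression had been taken out. These values were turned back to a linear scale, called use here, and compared as the log2 ratio of bru1M3 to w1118. A positive ratio means that the bin had more signal relative to the rest of bt in bru1M3, whatever the count of the gene. It is not a fraction of transcripts, since the slope of coverage along the gene enters it too. There is 1 value per genotype, with no replicate error, and so no test of any bin.

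Use of bt exons differed in separate stretches of the gene, in both directions. With a log2 ratio of at least 1 as the mark, 7 of 47 bins (14.9%) were higher in bru1M3, namely bins 20, 21, 24, 28, 29, 36 and 37, against 4.62% of all 44087 bins with a base mean of at least 10. Bins 4, 6, 7, 8, 50 and 51 were lower, 6 of 47 (12.8%) against 4.55% of all bins. In either direction the share was 27.7% in bt and 9.17% in all bins. Since bt was chosen with these values known, nothing is read from the contrast. Just inside the mark lay bin 37, at 1.02, and just outside lay bins 10 and 35, at 0.99 and 0.97.

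The median size of the log2 ratio was 0.62 over bt bins and 0.27 over all bins, while the median with its sign was -0.04 in bt, with quartiles of -0.63 and 0.61. Positive ratios were found in 21 bins and negative ones in 26. Among the 146 genes with at least 20 bins, the median share past the mark was 11.7%. Of these 146 genes, 24 had at least the share of bt. These values too are among those that bt was selected on, and are given as a description.

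**Figure D2:**
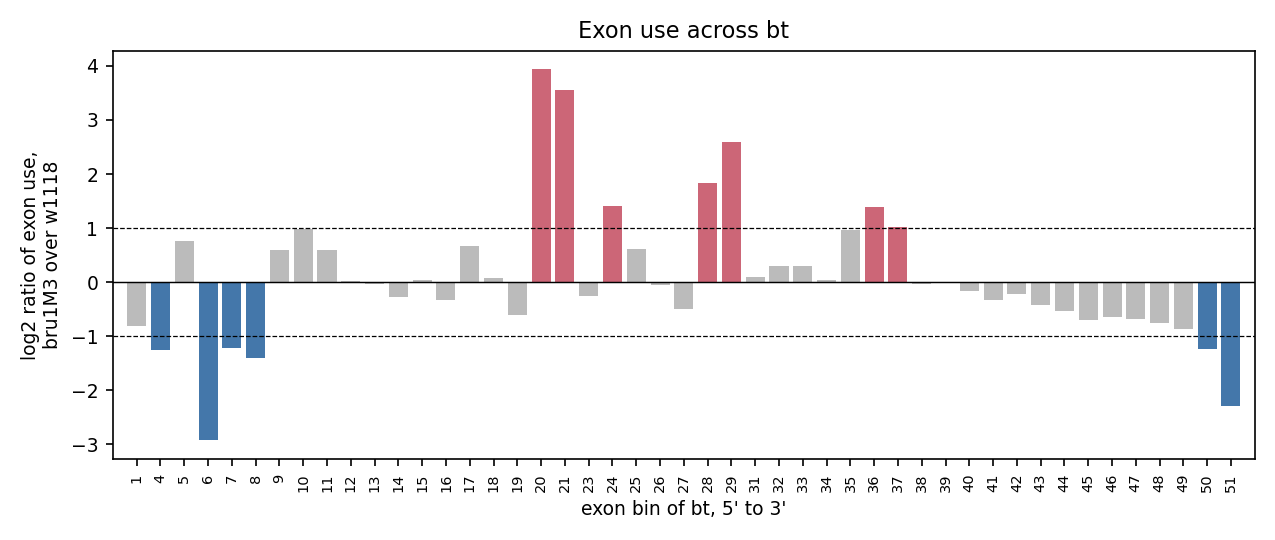
Log2 ratio of exon use, bru1M3 over w1118, for the 47 bins of bt from 5′ to 3′, with dashed lines at 1 and -1. Bins past the lines are red where higher and blue where lower in bru1M3, and the tallest bars are bin 20 at 3.94 and bin 21 at 3.56, while bin 6 reaches -2.93.

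The strongest difference was in the neighbouring coding bins 20 and 21, in the amino-terminal part of the protein. Bin 20 (chromosome 4, 735515 to 735823, 309 bases) had a deposited usage value of 5.36 in w1118 and 13.95 in bru1M3. On the linear scale its use was 40.6 in w1118 and 620.8 in bru1M3, which is 15.3-fold higher, a log2 ratio of 3.94. A ratio of that size in either direction was found in 0.370% of all bins. Since bt was selected on these values, this share is a description only.

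Bin 21 (735905 to 736030, 126 bases) followed it closely. Its usage value was 5.06 in w1118 and 12.53 in bru1M3, or 35.6 and 420.1 on the linear scale, 11.8-fold higher with a log2 ratio of 3.56. Together these bins hold 435 bases, exactly 145 codons, and they cover codons 1088 to 1232 of bt-RF. All 5 annotated transcripts include them.

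Set against their neighbours, bins 20 and 21 were low in w1118 and closer to the level of the flanks in bru1M3. Their use per 100 bases was 17.5 in w1118, where the nearest well-used bins in all transcripts, 18 and 25, had 353.1 and 182.4. This is 6.54% of the mean of the flanks, and 4.96% to 9.60% when either flank is taken alone. In bru1M3 their use per 100 bases was 239.3 and that of the flanks 373.6 and 279.4, so that they stood at 73.3% of the flank mean, between 64.1% and 85.7%. Bin 18, of 60 bases, is shorter than a read, so its level per base can be overstated. Against bin 25 alone the values were 9.60% in w1118 and 85.7% in bru1M3.

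A second pair of coding bins, 28 and 29, showed the same direction at a smaller size. Bin 28 (742403 to 742550, 148 bases) had a use of 49.4 in w1118 and 176.9 in bru1M3, 3.58-fold higher with a log2 ratio of 1.84. Bin 29 (742788 to 743161, 374 bases) had 72.7 and 435.9, 5.995-fold higher with a log2 ratio of 2.58. Neither bin alone is a multiple of 3 bases, but together they make 522 bases or 174 codons, codons 1462 to 1635 of bt-RF. Against bins 25 and 31 they stood at 11.8% of the flank mean in w1118 and at 46.2% in bru1M3. Their ranges with either flank, 10.9% to 12.8% and 42.01% to 51.2%, did not overlap. These bins too are part of all 5 annotated transcripts.

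The bins between these pairs had smaller ratios, in both directions. Bins 23 and 24 stood at 2.61% of the flank mean in w1118 and at 2.696% in bru1M3, although bin 24 alone was past the mark with a log2 ratio of 1.41 at a base mean of only 23. Bins 26 and 27, short exons of 36 and 33 bases, stood at 39.8% and 25.1%, with log2 ratios of -0.05 and -0.49 and base means of 19.8 and 31.2. Both are shorter than a read, so these 2 shares can be overstated. Not divided by length, their use in w1118 was 20.8 and 33.6, against 317.4 and 269.4 in bins 25 and 31. In bru1M3 it was 20.1 and 23.9, against 486.2 and 288.7. Bin 25, which is in all transcripts, had a log2 ratio of 0.62, higher in bru1M3. The ratios above 1.5 in this region were thus those of bins 20, 21, 28 and 29.

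Another low block, bins 35 to 37, had higher use in bru1M3 but stayed low in both genotypes. It holds 1800 bases, or 600 codons, in all 5 transcripts, and reaches from codon 2600 to codon 3200 of bt-RF. Bins 35 (750570 to 751469), 36 (752177 to 752940) and 37 (753025 to 753160) had log2 ratios of 0.97, 1.38 and 1.02. The block stood at 7.60% of the mean of bins 34 and 38 in w1118 and at 16.3% in bru1M3. Unlike bins 20 and 21, this stretch stayed far under its flanks in bru1M3 too. The flanks themselves were even, at log2 ratios of 0.04 and -0.04.

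**Figure D3:**
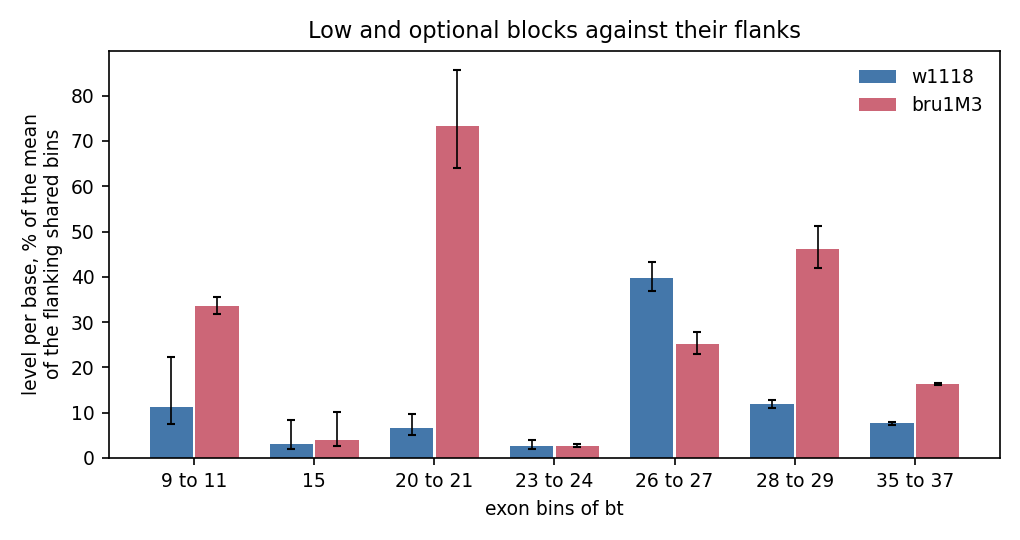
Use per base of 7 groups of bt bins as a percentage of the mean of their flanking bins, w1118 in blue and bru1M3 in red, with whiskers from the value against one flank to the value against the other, not replicate errors. Bins 20 to 21 go from 6.54% to 73.3% and bins 28 to 29 from 11.8% to 46.2%, while bins 15 and 23 to 24 stay under 5% of the flank mean in both genotypes. Bins 26 and 27 and the flank bins 16 and 18 are shorter than a read, so percentages that use them are less sure.

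At the 5′ end the choice between a pair of alternative small exons was turned round. Bin 5 (726662 to 726683, 22 bases) belongs to bt-RC, bt-RF and bt-RJ, and bin 6 (726932 to 726962, 31 bases) to bt-RH and bt-RI. No annotated transcript has both. Each is 1 base over a multiple of 3, so either can join the exons around it in the same frame.

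Bin 6 had a usage value of 14.25 in w1118 and 7.40 in bru1M3, or 673.5 and 88.6 on the linear scale, 7.60-fold lower with a log2 ratio of -2.93. Bin 5 had a use of 128.6 in w1118 and 217.7 in bru1M3, a log2 ratio of 0.76. Bin 6 took 84.0% of their summed use in w1118 and 28.9% in bru1M3. Divided by their lengths, its share was 78.8% and 22.4%. Both exons are shorter than a read, so this division does not remove the effect of their unequal length. It also makes their absolute levels less sure than those of long bins. Per base, bin 6 stood at 340.4% of the mean of bins 4 and 7 in w1118, and bin 5 at 365.0% in bru1M3. Such levels cannot be fractions of transcripts.

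The shared exons around this pair were also used less in bru1M3. Bins 4, 7 and 8 are in all transcripts and had log2 ratios of -1.26, -1.22 and -1.40, whereas bins 12, 13 and 14 further in had 0.02, -0.04 and -0.27. Per 100 bases, bins 4, 7 and 8 had 2.79 times the use of bins 12 to 14 in w1118 (634.6 against 227.1). In bru1M3 this ratio was 1.29 (262.0 against 203.4). The start of the gene therefore stood above the following exons in w1118 and was nearly level with them in bru1M3.

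Between these stretches, bins 9 to 11 were used more in bru1M3. They are present in bt-RF and bt-RI alone and make up 645 bases or 215 codons, with log2 ratios of 0.60, 0.99 and 0.60, all short of the mark. They stood at 11.1% of the flank mean in w1118 (7.42% to 22.2%) and at 33.6% in bru1M3 (31.7% to 35.6%). Bin 8, their upstream flank, itself had lower use in bru1M3, which enters these shares. Bin 15, another exon that is not in all transcripts, was low in both, at 3.14% and 4.04%, with a log2 ratio of 0.04. Its flank bin 16, of 45 bases, is shorter than a read, and against bin 14 alone bin 15 stood at 8.265% and 10.2%.

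Most reads of bt came from its 3′ end, and this end was used less in bru1M3. Bins 42 to 50 held 91.0% of the summed base mean on 48.8% of the bases. From bin 38 to bin 50 the log2 ratio went down along the gene almost without a break, from -0.04 in bin 38 over -0.22 in bin 42 and -0.70 in bin 45 to -0.86 in bin 49 and -1.23 in bin 50. Spearman's correlation of the ratio with the order of these 13 bins was -0.97, as a description, since neighbouring bins share fragments and libraries. The use per base of bin 50 was 74.3 times that of bin 38 in w1118 and 32.6 times in bru1M3. Per 100 bases, use went from 3487 in bin 45 to 22185 in bin 46 in w1118, and from 2143 to 14145 in bru1M3. At bin 50 it was 9335 in w1118 and 3980 in bru1M3. Bins 46, 47 and 48, of 57, 101 and 127 bases, are shorter than a read, so division by length can overstate their level. Not divided by length, use rose from bin 46 to bin 50, from 12646 to 108943 in w1118 and from 8063 to 46443 in bru1M3. The peak per base at bin 46 is therefore not read as the shape of coverage.

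**Figure D4:**
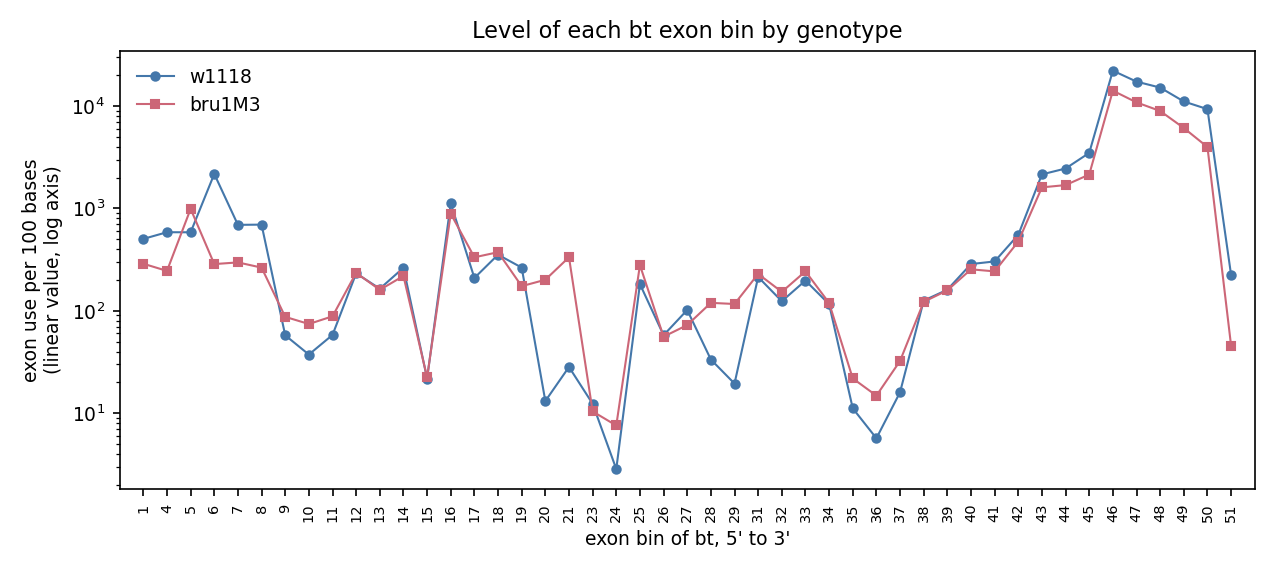
Use of each bt exon bin per 100 bases on a log axis, from 5′ to 3′, w1118 as blue circles and bru1M3 as red squares. The lines part at bins 4 to 8, at bins 20 and 21 and at bins 28 and 29. From bin 42 both climb to bin 46 and then fall to bin 51, with w1118 above bru1M3. Bins 46 to 48 are shorter than a read, so their height per base can be overstated.

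Such a lean was not particular to bt. In 358 long genes, with at least 10 bins and 6000 bases, the last 3000 bases were set against the rest. The end was used less in bru1M3 in 232 of them (64.8%), with a median difference in log2 ratio of -0.15. The difference was -0.79 in bt, and 39 of the 358 genes, bt itself among them, were at or below it. Among the other giant muscle proteins it was -1.04 in Unc-89, -0.04 in sls and 1.34 in Strn-Mlck. The end of bt stood above the rest of the gene by 4.10 in w1118 and 3.39 in bru1M3 on the log2 scale, against medians of 0.76 and 0.65 over the long genes. The part of RNA quality and of poly-A selection in this slope was not tested.

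The last bin added a drop of its own. Bin 51 (776082 to 776474, 393 bases) is the extension of the 3′ untranslated region that only bt-RI carries. Its usage value was 15.24 in w1118 and 9.57 in bru1M3, 4.92-fold lower with a log2 ratio of -2.30. Its share of the use of bins 50 and 51 was 0.800% in w1118 and 0.383% in bru1M3, or 2.34% and 1.13% counted per base. The longer end thus had a small share in both genotypes.

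Whether the bins that changed keep the reading frame was counted over the coding bins. Of the 10 coding bins past the mark by their fold and made of coding sequence alone, 3 were multiples of 3 bases, and of the 33 within it 22 were. The bins past the mark that are no multiples of 3 include bins 28 and 29, which restore the frame together, and the exchangeable bin 6. Bins 36 and 37 are others, which with bin 35 make 1800 bases or 600 codons. The rest are bins 7 and 8, which are in all 5 transcripts. Counted singly, the bins thus do not show whether a change shifts the frame. Bins 20 and 21 are each a multiple of 3.

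The partners of projectin in the sarcomere were taken from a list of 21 genes, of which 20 were tested with limma over all 9228 genes. In that fit 7 were called higher in bru1M3 (adjusted p under 0.05) and 0 lower. The 7 called genes are 35% of the list, against 22.2% of all genes called, 12.8% higher and 9.33% lower. At an unadjusted limma p under 0.05 the number lower was also 0, where 1642 of all 9228 genes were lower. EdgeR and DESeq2 called 0 genes of the list lower too, where they called 896 and 1005 of all genes lower. The middle gene of the list had a log2 fold change of 0.43 (quartiles 0.18 and 1.08), and over all genes the median lay at 0 (quartiles -0.53 and 0.55). With quantile normalization or equal totals of nuclear reads, the share of higher genes among all those called went from 57.9% to 47.8% and 45.4%.

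Among the giant proteins, sls, which encodes the Z-disc and I-band protein Sallimus, rose most. Its normalized counts were 30423 and 34674 in w1118 and 130802 and 171765 in bru1M3, which is 2.21 ± 0.27 on the log2 scale (SE, adjusted p = 0.00167, limma). The values for Strn-Mlck and Unc-89 were -0.64 and 0.21, neither called, and in both the groups overlapped. Of the thick filament genes, Prm, which encodes the core protein paramyosin, rose by 1.29 and Mf, which encodes myofilin, by 1.16. Myosin heavy chain, Mhc, had a value of 0.44 and was not called. The values of Mhc and Unc-89 turned on single libraries: without bru1M3 replicate 1 they were 0.93 and 0.64, both called higher, and without bru1M3 replicate 2 they were -0.04 and -0.23, not called.

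At the Z-disc, where projectin is anchored, 3 of 4 tested genes rose. These were Actn, which encodes the actin crosslinker alpha-actinin, at 0.90, and the PDZ domain genes Zasp52 and Zasp66 at 1.37 and 1.05. Zasp67 had a value of -0.71 and was not called. Of 7 thin filament genes only tmod, which encodes the pointed-end cap tropomodulin, was called, at 1.48. Without w1118 replicate 1, 3 genes of the list remained called higher, with Actn, Prm, Zasp52 and Zasp66 lost, and without w1118 replicate 2 it was 2, with Mf lost as well. The log2 fold changes of these genes moved little, for Prm from 1.29 to 1.24 and 1.35 and for Zasp52 from 1.37 to 1.38 and 1.36, while their standard errors rose, for Prm from 0.27 to 0.57 and 0.58. Without bru1M3 replicate 2, Strn-Mlck, Zasp67 and fln were called lower. Without bru1M3 replicate 1, 10 genes of the list were called higher, Act88F, Mhc and Unc-89 among them.

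**Figure D5:**
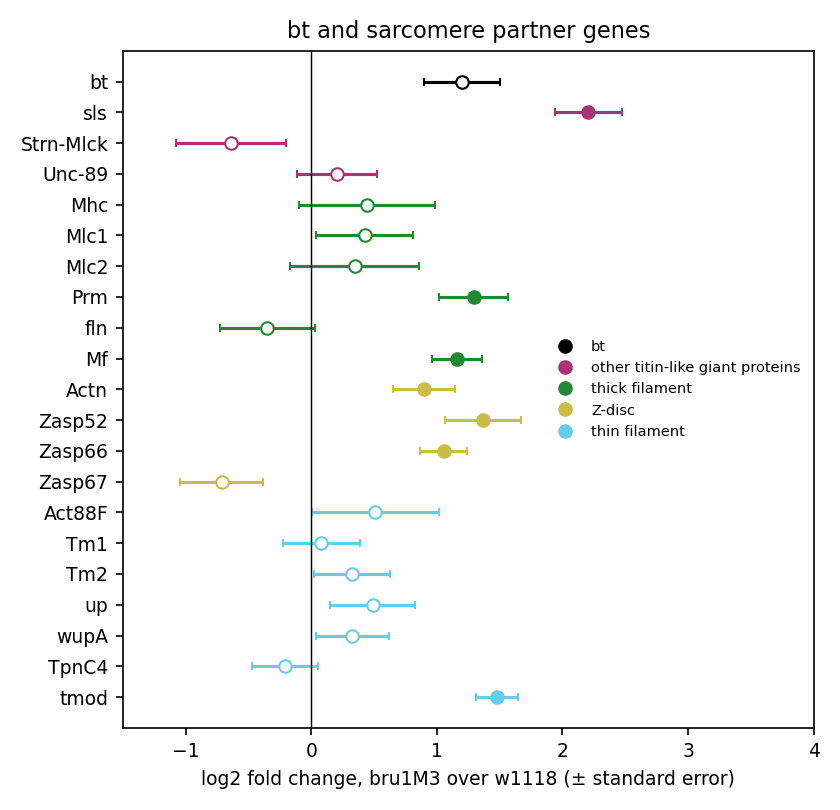
Log2 fold change, bru1M3 over w1118, with its standard error from limma, for bt and 20 partner genes coloured by their place in the sarcomere. Filled points passed an adjusted p of 0.05, hollow points did not, and bt is hollow because it is given as a description, with sls at 2.21 farthest to the right.

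The genes next to bt on chromosome 4 did not share a called change. On its 5′ side, ey, a transcription factor gene of eye development (697689 to 721173), had 10.2 and 12.1 normalized counts in w1118 and 23.2 and 24.6 in bru1M3, which is 1.04 on the log2 scale (adjusted p = 0.217, limma). The growth factor gene myo (690686 to 696055) had a value of -0.23 (limma adjusted p = 0.429). On the 3′ side, MED26, which encodes a Mediator subunit (778516 to 788978), and Sox102F, a transcription factor gene (800436 to 834393), had 0.23 and -0.19 (limma adjusted p = 0.373 and 0.833). Over the 81 tested genes of the chromosome other than bt, 4 were called higher and 12 lower, where 12.8% of all genes were called higher and 9.33% lower. The median log2 fold change of these 81 genes was -0.19, with 24 positive and 57 negative values. Without w1118 replicate 2 or without bru1M3 replicate 1, the number called lower was 4.

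The profile of bt over the 4 libraries was most like that of Dyrk2, which encodes a protein kinase. Likeness was measured as the Euclidean distance between centred log2 values over the 4 libraries, among 1339 other genes whose mean normalized count reached 1000. The distance was 0.0788 for Dyrk2, then 0.216 for milt, 0.244 for fray, 0.251 for Alk and 0.259 for FipoQ. Dyrk2 had 2263 and 2565 normalized counts in w1118 and 4378 and 7243 in bru1M3, the same order of libraries as in bt. With 4 libraries of 2 genotypes, likeness mostly states that a gene was higher in bru1M3 by a similar amount.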

How the data were processed

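mRNA-Seq of IFM from w1118 and bru1M3 flies (2 libraries each, poly-A selected, stranded, paired) was analysed. Per the submitters' notes and the study's methods, the authors used STAR 2.7.3a, SAMtools 1.1, featureCounts of Subread 2.0.0 and DESeq2 1.32.0 with BDGP6.22, and DEXSeq, whose version is not given in the sources used here. The gene values the authors deposited are a signal, counts divided by a size factor per library. For exon bins they deposited a base mean signal and a usage score per genotype. Their fold change and p-value columns were not used, nor were 4 exon columns per library whose names match no sample.

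Whole reads were recovered from the gene values, with 100% of values whole in each library and 1 read worth 0.682 to 1.70 (30384053 to 34105524 reads per library). Genes with at least 10 in at least 2 libraries (9228 of 10626) were tested on log2(value + 1) with limma 3.58.1 in R 4.3.3, without a block, with Benjamini-Hochberg adjustment. An exact permutation test of 2 against 2 libraries cannot go below p = 0.333. Usage scores were made linear with an inverse hyperbolic sine curve fitted to the base mean over 18295 bins whose genotype scores differ by at most 5%, with a median residual of 0.268 score units. All 47 bins matched a model rebuilt from the Ensembl annotation (BDGP6.54, same assembly).

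Genes named are bt, bru1, the partner list, the 2 tested neighbours on each side and the 5 most similar profiles, and markers were listed by cell type. The members and lists were chosen with earlier results of these data known, and the groups of bins set against flanks were chosen after their values were seen. Alternatives were edgeR 4.0.16 and DESeq2 1.42.0 on recovered reads, quantile normalization, equal nuclear totals, pseudocounts, filters, a replicate block, leaving out each library, and other marks, minimums and weights for bins. Curves on bins within 1% or 10% were added after seeing the data. The limma, edgeR and DESeq2 fits and the exon curve were tested on simulated data.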

Additional observations from a re-analysis of the deposited data

How the results depend on the processing

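The log2 fold change of bt was 1.07 to 1.29 under other scalings, tools, pseudocounts and filters, and 0.89 to 1.51 when a library was left out, the lowest without bru1M3 replicate 2. The numbers of bt bins past the mark, 7 higher and 6 lower, were 14 and 14 at a log2 mark of 0.5 and 4 and 2 at one of 1.5, and 5 and 6 with a base mean of at least 100. Weighted by length, the median of bins 28 to 37 went from 0.97 to 0.31 and that of bins 38 to 51 from -0.59 to -0.22, since long bins with small ratios then count for more. With quantile normalization, 1095 of all genes were called higher and 1196 lower, in place of 1185 and 861. Under it 12 partner genes were called higher with a median of 0.90, and chromosome 4 had 2 higher, 21 lower and a median of -0.33. Equal nuclear totals gave 947 higher and 1138 lower among all genes, and moved their median by -0.13. With these totals, 1 partner gene was called lower and the chromosome 4 median was -0.31. The causes were not tested.

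With a library left out, 1276 to 1839 genes were called in place of 2046. Partner genes called higher were 2 to 10, called lower 0 to 3, with a median of 0.28 to 0.61. Chromosome 4 genes called lower were 4 to 13, called higher 3 to 5, with a median from -0.31 to -0.17. Replicate numbers did not pair the libraries (correlation of deviations 0.027). The replicate block gave 2294 called genes and the same 1.20 for bt, and Actn lost its call at the same log2 fold change of 0.90 (limma adjusted p = 0.0395 without the block and 0.0600 with it). Of the 30 named genes other than bt, 12 kept call and direction throughout.

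Exon values have no replicate error. Bins 23, 24 and 26, with base means near 20, are the least precise.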
